A study of Rattus norvegicus with 98 samples.

Results

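Acetylated lysine 27 of histone H3 (H3K27ac) was compared between the basolateral amygdala (BLA) and the centromedial amygdala (CMA) of the rat. The comparison took every BLA library and every CMA library of the series, 8 of the 94 libraries with a peak list, by their labels alone. Each label was represented by 2 Sham and 2 FT libraries, so that 4 libraries stood against 4. Animals were male Long-Evans rats, 2 months old at the start. FT animals received fluoxetine, a serotonin reuptake inhibitor, at 18 mg/kg of body weight for 6 weeks, and Sham animals received water without the drug. No genotype or other agent differed between the groups. Each library came from tissue micropunched out of frozen sections and pooled over 10 animals, so a library describes a pool and every cell type inside the punch, and the spread between libraries is not a spread between single animals. In such bulk tissue, fewer cells of a type and weaker acetylation per cell cannot be told apart.

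H3K27ac marks active promoters and enhancers, and distal enhancers in particular are used in patterns that differ between cell types. The BLA belongs to the pallium. Most of its neurons are glutamatergic projection neurons that resemble those of the cortex. The central nucleus, the larger part of what is usually called the centromedial group, is built mainly of GABAergic neurons and is often described as striatum-like, with close ties to the bed nucleus of the stria terminalis (BNST). On this anatomy, sites of the BLA would be looked for among the cortical regions and those of the CMA in the nucleus accumbens and BNST.

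The lists went the other way. Sites found in the libraries labelled BLA and not in those labelled CMA were mostly acetylated in the accumbens core and BNST and seldom in cortex. They were not particular to those regions. Mean shares were 81.1% in accumbens core and 84.5% in BNST. They were 78.2% to 82.5% in Snt, Raphe, the ventral tegmental area and the lateral hypothalamus. In the accumbens shell the mean was 37.2%, below its 42.1% of all windows compared. Sites found in the libraries labelled CMA were rare in the accumbens and BNST. They were more frequent in cortex and dentate gyrus, though below the share of all windows compared. Dentate gyrus held sites of both labels at similar mean rates, but its single libraries were divided. The means were 37.0% (BLA) and 41.6% (CMA) in its ventral part and 32.8% and 33.9% in its dorsal part. In Sham replicate 1 the shares were 58.8% and 35.8% (ventral) and 60.5% and 29.5% (dorsal). In FT replicate 1 they were 23.6% and 38.4% (ventral) and 18.7% and 36.8% (dorsal). The BLA label was the higher in 1 of 4 ventral and 2 of 4 dorsal libraries. The contrast of cortex with accumbens and BNST was present in all 8 libraries, in both treatments and in both replicates. The cause was not tested. Marker genes of the cell types could not be placed on Rn5, the genome build of the lists, because an annotation of that build was not used here, so neither label could be checked against a gene. No library was relabelled. "BLA-labelled" and "CMA-labelled" below refer to the deposited labels and to nothing else, and every direction given depends on them.

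The lists themselves differed little between the labels. The deposited lists of the BLA-labelled libraries held 43143 and 31893 peaks in Sham and 50699 and 51269 in FT, for replicates 1 and 2. Those of the CMA-labelled libraries held 38423 and 40660 in Sham and 48863 and 53716 in FT. The means were 44251 ± 9033 and 45416 ± 7125 peaks (SD, n = 4 each), a log2 difference of -0.05 (exact permutation test, two-sided, p = 0.886). Its sign turned without BLA Sham replicate 2 (0.0998) or CMA FT replicate 2 (0.0358). All 4 FT lists were longer than all 4 Sham lists with the labels pooled, by 0.42 on the log2 scale (exact permutation test, two-sided, p = 0.0286, the smallest p that 4 against 4 allows). These 8 libraries were taken to come from only 4 pools of animals, 2 per treatment, which the labels do not state. Over pool means the exact permutation p was 0.333, the smallest that 2 against 2 allows. Read depth is unknown, so a longer list and a deeper or better enriched library cannot be told apart.

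Every list was therefore cut to its 31893 best-scoring peaks, the length of the shortest of the 8 (BLA Sham replicate 2), ranked by maxScore, the highest value of the peak caller's filter within a peak. In the cut lists the median peak was 1700, 1400, 1900 and 2000 bp wide in the BLA-labelled libraries (Sham replicates 1 and 2, then FT replicates 1 and 2). It was 1600, 1700, 1900 and 2000 bp wide in the CMA-labelled libraries. The log2 difference of -0.05 was within the spread between libraries (exact permutation test, two-sided, p = 0.886). The same held for the covered length, at 57.3 ± 7.54 Mb and 57.9 ± 5.31 Mb (SD, n = 4 each, exact permutation test, two-sided, p = 0.943). FT lists covered more than Sham lists even at equal peak number, at 61.2 to 63.5 Mb against 46.9 to 56.6 Mb.

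**Figure D1:**
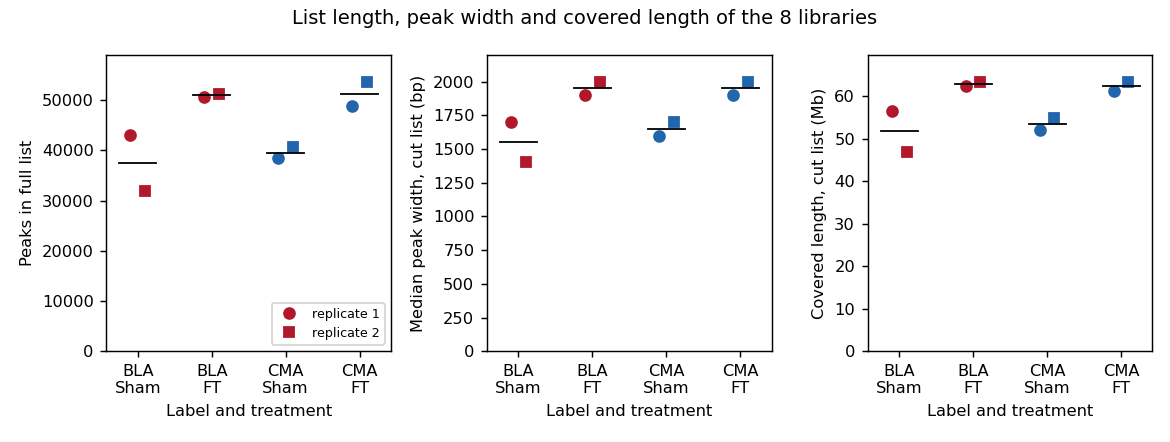
Number of peaks in the full list, median peak width (bp) and covered length (Mb) of the cut list for the 8 libraries. Circles and squares are replicates 1 and 2, and black lines are means of 2. The FT libraries stand above the Sham libraries in all 3 panels, while the BLA and CMA labels overlap, and BLA Sham replicate 2 is the lowest point in each.

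Occupancy was scored over windows of 1 kb laid end to end along each chromosome. A window was called occupied in a library when peaks of its cut list covered at least 50% of it. Similarity of 2 lists was given by the Jaccard index, in which windows present in both lists are divided by windows present in either. Pairs of BLA-labelled libraries reached 0.607 to 0.801 and pairs of CMA-labelled libraries 0.654 to 0.777, against 0.539 to 0.666 for a BLA-labelled with a CMA-labelled library. Mean similarity within a label exceeded that between labels by 0.0737, the highest value among the 35 ways of dividing the 8 libraries into 4 and 4 (exact permutation test, one-sided, p = 0.0286). Division by treatment gave 0.0355 in the same lists. With the pool of animals as a block, the exact permutation p for the label was 0.125, the smallest that 4 pools allow. On full lists the order turned, with 0.0516 for the label and 0.064 for treatment, and the exact one-sided permutation p for the label became 0.0571. In windows of 5 kb treatment gave 0.125 and the label 0.0556 (exact one-sided permutation p = 0.0857).

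For each of the 8 libraries the most similar of all other libraries carried the same label. Beyond the 8, the closest list to both Sham libraries of either label was venDG Sham replicate 1, from the dentate gyrus of the ventral hippocampus, at 0.608 to 0.665. FT libraries parted at this point. The closest list to both BLA-labelled FT libraries was BNST FT replicate 1, at 0.657 and 0.659, and the closest to both CMA-labelled FT libraries was venDG FT replicate 2, at 0.621 and 0.636.

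**Figure D2:**
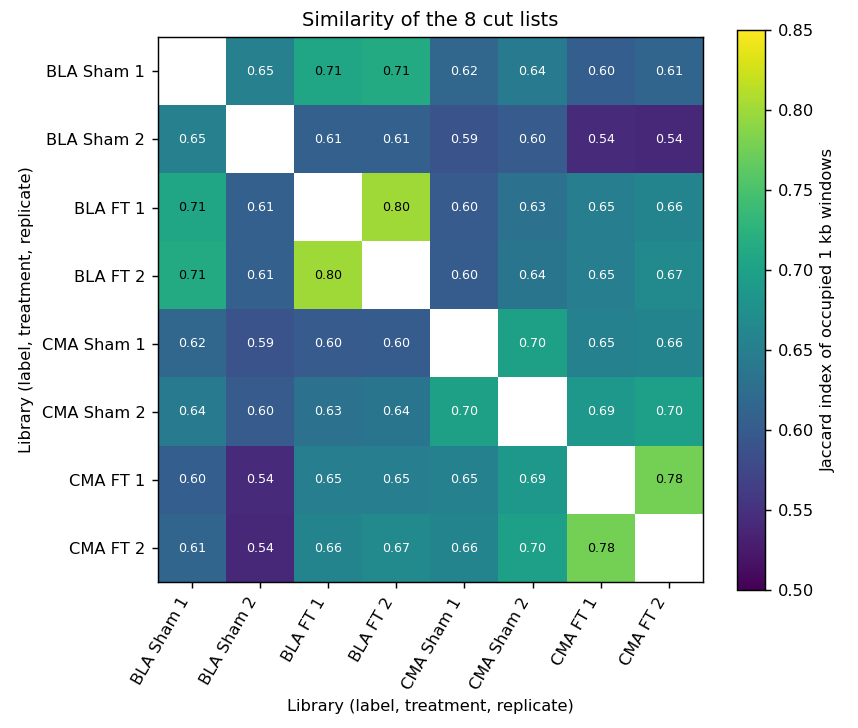
Jaccard index of occupied 1 kb windows for every pair of the 8 cut lists, printed in each cell and shown by colour. The highest values, 0.80 and 0.78, are those of the FT pairs of one label, and the lowest, 0.54, are those of BLA Sham replicate 2 with the CMA FT libraries.

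A total of 93836 windows were occupied in at least 1 of the 8 cut lists, and 31665 of them were occupied in all 8. A window was called when 4 of 4 libraries of one label occupied it and 0 of 4 of the other did. For a single window, Fisher's exact test of 4 against 0 gives a two-sided p of 0.0286 and cannot go lower, so the call is a rule of separation and not a test over the genome. In this way 1192 windows were called for the BLA-labelled lists (1.27% of those tested) and 1348 for the CMA-labelled lists (1.44%). By the same rule 981 windows separated FT from Sham (1.05%) and 62 separated Sham from FT (0.0661%) in these 8 lists. At this list length the directions of the label contrast were near even, which depended on the setting, with 1135 against 595 windows among the 10000 best peaks. Just outside the threshold, 1112 windows were occupied in 4 BLA-labelled lists and 1 CMA-labelled list, and 1990 in 3 and 0. In the other direction, 1006 windows were occupied in 4 CMA-labelled lists and 1 BLA-labelled list, and 2015 in 3 and 0.

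Both counts depended on Sham libraries. Without BLA Sham replicate 2, 2470 windows were called for the BLA-labelled lists and 1457 for the CMA-labelled lists. When the other 7 lists were then cut to the shortest of them, chosen after seeing the data, the counts were 2733 and 1475. Without CMA Sham replicate 1 or 2, 2255 and 2063 were called for the CMA-labelled lists, against 1452 and 1518 for the BLA-labelled lists. A rule of 3 libraries against 4 is looser by construction.

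Called windows lay under peaks of low rank. Within the cut lists that held them, the median score percentile was 32.0 for BLA-labelled and 32.8 for CMA-labelled windows, where 100 is the best peak of a list and 0 the worst, against 72.6 for windows occupied in all 8 lists. Part of the separation came from the length of the lists. In the full lists, the 1192 BLA-labelled windows were occupied 139 and 250 times in CMA-labelled Sham replicates 1 and 2, and 473 and 637 times in FT replicates 1 and 2. Of the 1348 CMA-labelled windows, 284, 655 and 737 were occupied in the full lists of BLA Sham replicate 1, FT replicate 1 and FT replicate 2, and none in BLA Sham replicate 2, which was not shortened. An alternative chosen after seeing the data required that no full list of the other label occupy the window, and left 417 and 437 windows. Occupancy needs 50% of a window, and 298 and 265 of these still touched a peak in a full list of the other label. Only 102 BLA-labelled windows (8.56%) and 161 CMA-labelled windows (11.9%) lay more than 1 kb from every such peak. Few calls were thus at places where none of the 4 full lists of the other label had a peak nearby.

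Against the cut lists, most called windows stood apart from the peaks of the other label. Of the 1192 BLA-labelled windows, 278 (23.3%) touched or overlapped a CMA-labelled cut peak, and 490 (41.1%) lay more than 10 kb from any. Of the 1348 CMA-labelled windows, 210 (15.6%) touched a BLA-labelled cut peak and 764 (56.7%) lay more than 10 kb away. The median distance was 6807 bp and 13719 bp. Called windows were spread over the genome, with 0.911% to 1.97% of the tested windows per chromosome called for the BLA label and 0.564% to 2.45% for the CMA label. The lowest share was that of chromosome X for both labels.

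The calls were followed between treatments, since Sham and FT libraries came from different animals. Of 3104 windows that separated the 2 BLA-labelled from the 2 CMA-labelled Sham libraries, 2082 (67.1%) were occupied in more BLA-labelled than CMA-labelled FT libraries, 935 were tied and 87 (2.8%) went the other way. Of 4385 CMA-labelled Sham windows, 2412 (55.0%) were occupied in more CMA-labelled FT libraries, 1736 were tied and 237 (5.4%) went the other way. Windows called in FT and followed in Sham gave 51.9% the same way and 5.44% the opposite for the BLA label, and 53.9% and 3.3% for the CMA label. In each of the 4 sets the same direction was at least 9 times as frequent as the opposite one.

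Whether called windows were shared with other regions was asked in 86 libraries of 23 regions, cut to the same length. Of these lists, 14 were shorter and were used whole, among them both Sham lists of the prelimbic cortex (PLC), one of the infralimbic cortex (ILC) and 3 of the accumbens shell (NaCshell). A window counted as shared with a group of regions when at least 50% of its libraries occupied it. Cortex stands for PLC, ILC, cingulate cortex (CGC) and InsularCortex, with 16 libraries, and accumbens for NaCshell and NaCcore, with 8.

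The accumbens shared 888 of the 1192 BLA-labelled windows (74.5%) and 30 of the 1348 CMA-labelled windows (2.23%), against 49.3% of all tested windows. BNST shared 1079 BLA-labelled windows (90.5%) and 138 CMA-labelled windows (10.2%), against 58.2%. Cortex shared 170 BLA-labelled windows (14.3%) and 491 CMA-labelled windows (36.4%), against 52.7%. BLA-labelled windows were therefore above the level of all tested windows in accumbens and BNST and below it in cortex. CMA-labelled windows were below that level in all 3 groups, least so in cortex. The accumbens share of BLA-labelled windows rested on NaCcore, whose libraries held a mean of 81.1%, against 50.9% of all tested windows. NaCshell libraries held a mean of 37.2%, below their 42.1% of all tested windows. The shares were counted again within each of the 4 pools of animals. Accumbens libraries of one pool shared 70.2% to 92.3% of BLA-labelled windows and 6.16% to 20.4% of CMA-labelled windows. BNST shared 74.0% to 91.4% and 2.67% to 12.8%. Cortex shared 12.7% to 26.4% and 28.1% to 50.7%. In each pool the BLA label was the higher in accumbens and BNST and the lower in cortex.

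Taken window by window, 970 BLA-labelled windows (81.4%) were shared with accumbens or BNST and not with cortex, and 12 (1.01%) with cortex alone of these groups. The pattern of the CMA-labelled windows was less of one kind. Cortex without accumbens or BNST accounted for 445 (33.0%), accumbens or BNST without cortex for 108 (8.01%), and 749 (55.6%) were shared with none of the groups. Of all tested windows, 9.16% were shared with cortex alone of these groups and 18.9% with accumbens or BNST and not cortex. A further 43.6% were shared with both sides and 28.4% with none. Of the 749 CMA-labelled windows shared with none, 275 (36.7%) were shared with venDG, 241 (32.2%) with dorDG, the dorsal counterpart, 208 (27.8%) with the arcuate nucleus (arc) and 183 (24.4%) with the ventromedial hypothalamus (VMH). These sets overlap. Of the 52 BLA-labelled windows shared with none of the groups, 46.2% were shared with venDG, 30.8% with dorDG, 15.4% with arc and 21.2% with VMH. No matching share of all tested windows is given here.

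Across the 23 regions one at a time, BLA-labelled windows were found in a mean of 84.5% of cases in BNST libraries, 82.5% in Snt, 81.1% in NaCcore, 80.6% in Raphe, 78.9% in the ventral tegmental area (VTA) and 78.2% in the lateral hypothalamus (LH). All tested windows were found at 50.9% (NaCcore) to 56.5% (Snt) in these regions. Hence BLA-labelled windows were not confined to striatal regions. The lowest shares were those of PLC at 10.3%, the periaqueductal grey (PAG) at 14.5%, InsularCortex at 17.4% and ILC at 19.5%. CMA-labelled windows were found most in InsularCortex at 42.4%, venDG at 41.6%, CGC at 34.3% and dorDG at 33.9%, and least in NaCcore at 3.3%, NaCshell at 8.62% and BNST at 8.88%. All tested windows were found at 55.8% in InsularCortex, 54.9% in venDG, 54.1% in CGC and 52.9% in dorDG. CMA-labelled windows were thus below that level even where they were most frequent. BLA-labelled windows were found at 37.0% in venDG and 32.8% in dorDG. The BLA-labelled minus the CMA-labelled share ran from 77.8 percentage points in NaCcore to -25.0 in InsularCortex. It was above 0 in every library of the first 15 regions in that order, and below 0 in every library of CGC, arc, ILC, PLC, InsularCortex and PAG. NaCcore and NaCshell were unlike, with 81.1% and 37.2% of BLA-labelled windows, against 50.9% and 42.1% of all tested windows. One HB (habenula) library, Sham replicate 1, held under 1% of either set and stood apart from the series.

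**Figure D3:**
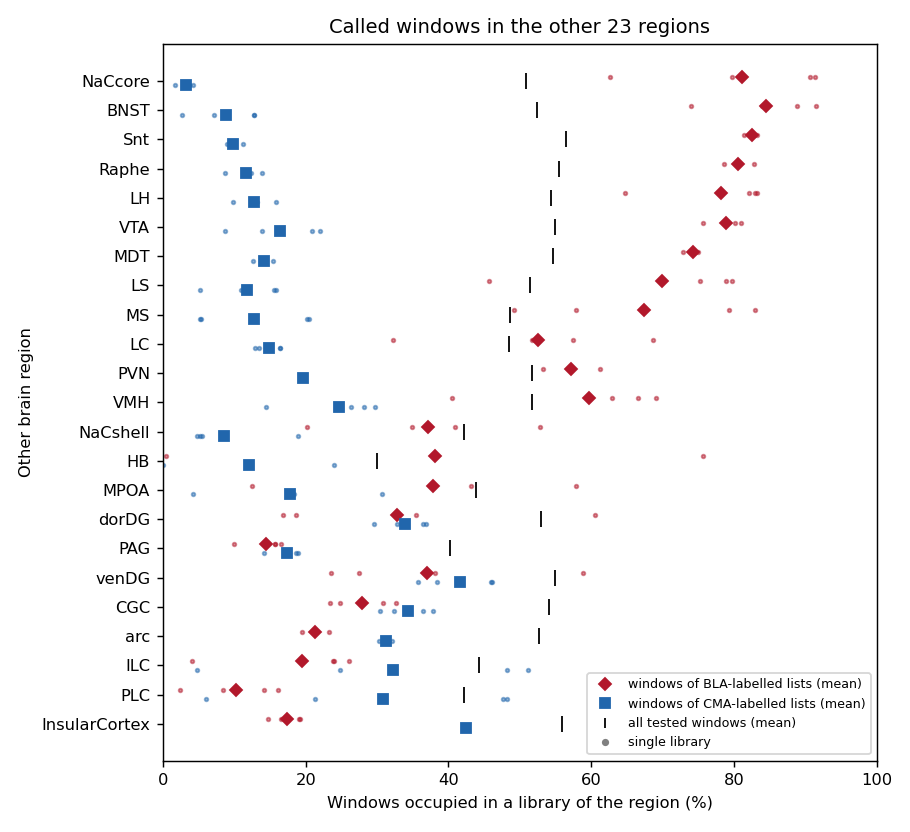
Share of the called windows (%) occupied in the libraries of each of 23 other regions, ordered by the difference between the sets. Red diamonds and blue squares are means over a region's libraries for the 1192 BLA-labelled and 1348 CMA-labelled windows, small points are single libraries and black ticks are all tested windows. The red and blue means are 77.8 percentage points apart in NaCcore at the top and trade places toward InsularCortex at the bottom.

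CMA-labelled windows were shared with fewer regions than BLA-labelled ones. The median BLA-labelled window was shared with 14 of the 23 regions (quartiles 10 and 17), and the median CMA-labelled window with 4 (quartiles 2 and 8), while the median of all tested windows was 13. Of the CMA-labelled windows, 144 (10.7%) were shared with no other region and 62 (4.6%) were occupied in no other library at all, while the counts for the BLA label were 2 and 0. Over all tested windows these shares were 8.0% and 3.66%, so the CMA-labelled shares were near the background and the BLA-labelled ones below it. The 62 windows had a median score percentile of 28.6, and 18 of them were empty in the full lists of all 86 other libraries too. The second highest in score of the 62, singled out after its values were seen, was chr17:8813001-8814000. It had score percentiles of 73.2 and 67.6 in the CMA-labelled Sham lists and 80.2 and 83.2 in the FT lists. The BLA-labelled full lists had 24.0 in Sham replicate 1, no peak in Sham replicate 2, and 46.2 and 32.3 in FT. No full list outside the amygdala occupied it.

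Whole lists were compared in the same way, without any choice of windows. For each library, its mean Jaccard index with the 16 cortex libraries was set against that with the 12 accumbens and BNST libraries. The difference was -0.0426 and -0.052 in the BLA-labelled Sham libraries and -0.0496 and -0.0472 in FT. It was 0.0417 and 0.0512 in the CMA-labelled Sham libraries and 0.0433 and 0.0501 in FT. All 4 BLA-labelled libraries were thus nearer to accumbens and BNST, and all 4 CMA-labelled libraries nearer to cortex. The means differed by -0.0944, about 20 times the SD of 0.00403 and 0.00478 within a label (n = 4 each, exact permutation test, two-sided, p = 0.0286, the smallest possible). With the pool as a block the exact permutation p was 0.125, again the smallest possible. The terms contributed unequally. Similarity to BNST was 0.581 ± 0.0228 in the BLA-labelled and 0.493 ± 0.00583 in the CMA-labelled libraries, and similarity to accumbens 0.54 ± 0.0152 and 0.475 ± 0.004. Similarity to cortex was 0.506 ± 0.0191 and 0.528 ± 0.00825 (SD, n = 4 each). With libraries of the same pool left out of every mean, the difference was -0.0925.

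A further look, chosen after seeing the data, started from the other regions and used no amygdala library. Windows were picked that the libraries of one group of regions held and those of others did not, and the 8 libraries were read at them. Cortex windows were those in at least 12 of the 16 cortex libraries and in none of the 12 accumbens and BNST libraries. Of these 2100 windows, the BLA-labelled lists occupied 16.5% and 9.52% in Sham and 19.2% and 20.95% in FT. The CMA-labelled lists occupied 33.7% and 37.5% in Sham and 41.8% and 45.7% in FT. The labels did not overlap, and the mean was 2.4-fold higher in the CMA-labelled lists.

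BNST windows, in at least 3 of 4 BNST libraries and in no cortex library, numbered 5263. BLA-labelled lists occupied 38.9% and 25.2% in Sham and 41.8% and 42.5% in FT, and CMA-labelled lists 9.88% and 9.84% in Sham and 14.7% and 14.5% in FT. The mean was 3.03-fold higher in the BLA-labelled lists, again without overlap.

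Accumbens windows, in at least 6 of the 8 accumbens libraries and in no cortex library, numbered 1484. BLA-labelled lists occupied 39.6% and 28.6% in Sham and 70.7% and 70.1% in FT. CMA-labelled lists occupied 13.7% and 15.5% in Sham and 29.4% and 30.9% in FT. Here treatment moved with the values in both labels, and the labels overlapped when the treatments were pooled, but not within Sham or within FT. When windows of any Raphe, LC (locus coeruleus) or Snt library were removed, 1213 remained. The BLA-labelled shares were then 35.1%, 24.0%, 69.7% and 68.8%, and the CMA-labelled shares 12.9%, 14.3%, 28.9% and 30.1%, in the same order.

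These shares are those of the cut lists. In full lists every share was at least as high, and with the treatments pooled the labels then overlapped at cortex and BNST windows, while within Sham and within FT they did not. Cortex windows were occupied at 25.6% and 9.52% in BLA-labelled full Sham lists and 44.5% and 48.3% in FT, against 38.6% and 45.5% in CMA-labelled Sham and 60.2% and 67.3% in FT.

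Brainstem and dentate windows were read in the same way. Both sets leave out every window of a cortex or accumbens library. They therefore say nothing about sites that brainstem or dentate gyrus shares with accumbens. Windows in at least 9 of the 12 Raphe, LC and Snt libraries and in no cortex or accumbens library numbered 1706. The BLA-labelled lists occupied 8.21% to 14.1% of them and the CMA-labelled lists 8.32% to 10.5%. The labels overlapped through BLA Sham replicate 2, at 8.21%. The other BLA-labelled lists, at 12.9% to 14.1%, were above every CMA-labelled list, so the labels did not overlap within FT. Windows in at least 6 of the 8 dentate gyrus libraries and in no cortex or accumbens library numbered 2342. BLA-labelled lists occupied 4.31% to 6.32% and CMA-labelled lists 11.3% to 17.8% of them, without overlap. In full lists the BLA-labelled FT libraries reached 15.9% and 18.7%, against 15.4% and 17.4% in CMA-labelled Sham. The labels then overlapped at dentate windows with the treatments pooled, but not within Sham or within FT.

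**Figure D4:**
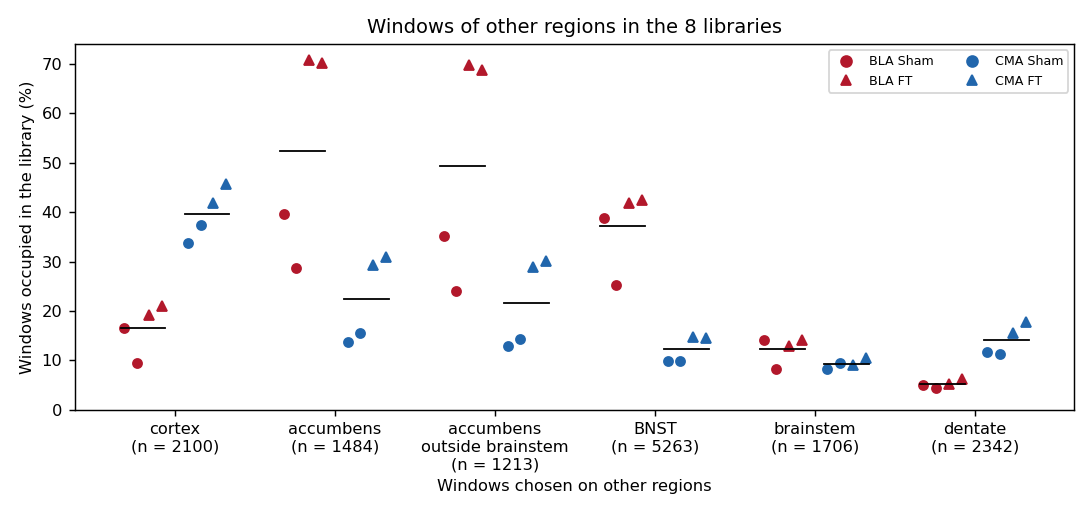
Share (%) of windows chosen on other regions that each of the 8 libraries occupied. Red is BLA-labelled and blue CMA-labelled, circles are Sham and triangles FT, and black lines are means of 4. CMA-labelled points are higher at cortex and dentate windows, and BLA-labelled points are higher at BNST windows and, within each treatment, at accumbens windows. At brainstem windows the labels overlap through BLA Sham replicate 2.

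Adjoining called windows were joined into 1070 loci for the BLA label and 1118 for the CMA label. Loci were small. Single windows made up 948 and 889 of them, pairs 122 and 228, and the longest, for the CMA label, held 3 called windows. The 10 named loci of each label were those with the most called windows, with ties decided by score. Positions are on Rn5, and no gene can be given for them.

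The first BLA-labelled locus was chr2:207400001-207402000. Peaks over it had score percentiles of 99.1 and 81.6 in the BLA-labelled full Sham lists and 99.3 and 98.8 in FT. The CMA-labelled lists had 3.46 and no peak in Sham, and no peak and 99.0 in FT. The last value belongs to a peak of 3800 bp in CMA FT replicate 2 that reached into the locus without covering 50% of either window. In that library the extent of the peak differed and not its score. Of the other regions, 15 of 16 cortex libraries occupied it.

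A clearer case was chr20:15876001-15878000. Its percentiles were 82.8 and 70.6 in the BLA-labelled Sham lists and 76.2 and 77.4 in FT. No CMA-labelled list had a peak there except FT replicate 2, at 38.8. It was occupied in 0 of 16 cortex, 8 of 8 accumbens and 4 of 4 BNST libraries.

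At chr5:21838001-21840000 the BLA-labelled lists had 63.7 and 51.9 in Sham and 86.2 and 86.7 in FT. The CMA-labelled lists had no peak in 3 libraries and one at 3.29 in FT replicate 2. Again 0 of 16 cortex and 8 of 8 accumbens libraries occupied it, and only 4 of the 23 other regions shared it. At chr3:160385001-160387000 no CMA-labelled list had a peak, and the BLA-labelled lists had 92.3 and 25.2 in Sham and 92.7 and 91.8 in FT. That locus was broad over regions, in 14 of 16 cortex libraries and 21 regions. Among the 10 BLA-labelled loci, 5 were in no cortex library and 5 in 4 to 15 of them, and all 10 were in at least 5 of 8 accumbens and 3 of 4 BNST libraries.

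The longest CMA-labelled locus was chr2:62009001-62014000, with 3 called windows. Its percentiles were 58.4 and 62.3 in the CMA-labelled Sham lists and 67.6 and 65.4 in FT, against 25.5 and 22.3 in the BLA-labelled Sham lists and 29.2 and 31.6 in FT. The BLA-labelled peaks there were 800 to 1300 bp wide and the CMA-labelled ones 1400 to 2000 bp. All 16 cortex libraries, 1 of 8 accumbens and 0 of 4 BNST libraries occupied it.

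At chr3:72976001-72978000 the CMA-labelled lists had 74.6 and 74.4 in Sham and 80.0 and 83.4 in FT. The BLA-labelled lists had no peak in Sham and 28.0 and 22.0 in FT. It was in 15 of 16 cortex libraries and in no accumbens or BNST library. At chr19:29531001-29533000 no BLA-labelled full list had a peak, and the CMA-labelled percentiles were 68.6 and 64.6 in Sham and 80.4 and 81.6 in FT. Among the 10 CMA-labelled loci, 8 were in 3 to 16 cortex libraries and 2 in none. BNST libraries were empty at 9 of them, and accumbens libraries at 6.

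Sites present in all 8 lists were compared by rank. Stretches covered in at least 2 of the 8 cut lists were joined into 39926 elements, and 20498 of them met a peak in every list. The rank of the best-scoring peak in each list was turned into a normal score, on which 0 is the middle of the list and 1 is one SD of ranks. By limma with a Benjamini-Hochberg adjusted p of at most 0.05, 2980 elements ranked higher in the BLA-labelled lists (14.5% of those tested) and 2027 in the CMA-labelled lists (9.89%). The median difference over all elements was -0.03. On full lists, 2014 and 578 of 24490 elements passed, so the excess toward the BLA label was larger there. Without CMA FT replicate 2 the second count was 1207. Elements higher in the BLA-labelled lists had a median percentile of 79.5 there and 57.9 in the CMA-labelled lists. Those higher in the CMA-labelled lists had 75.5 there and 52.9 in the BLA-labelled lists.

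The ranks of these elements were then read in the other regions, on lists that the test had not used. Of the 2980 elements higher in the BLA-labelled lists, 2868 (96.2%) had a higher mean percentile in accumbens than in cortex, and 2897 (97.2%) a higher one in BNST than in cortex. Of the 2027 elements higher in the CMA-labelled lists, 84.1% were higher in cortex than in accumbens and 81.8% higher in cortex than in BNST. Over all 20498 elements, 41.0% were higher in accumbens and 42.9% in BNST. Median percentiles of the first set were 88.8 in BNST, 76.8 in accumbens and 52.8 in cortex. Those of the second were 38.5, 39.1 and 61.6.

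Taken singly, the regions with the widest gap between both sets were Snt, with median percentiles of 89.9 and 35.3, NaCcore with 86.0 and 32.4, BNST with 88.8 and 38.5, and Raphe with 87.4 and 39.9. LH and VTA followed. The gap was therefore not particular to accumbens and BNST. It ran the other way in PLC, with 40.3 and 59.2, arc with 51.4 and 67.1, and InsularCortex with 54.1 and 68.4. In ILC and CGC the sets were within 2 percentile points of each other. In venDG and dorDG they differed by less than 1 point. Mean shares of the called windows were also close there, at 37.0% (BLA) and 41.6% (CMA) in venDG and 32.8% and 33.9% in dorDG. Single libraries were divided, with the BLA label the higher in 1 of 4 in venDG and 2 of 4 in dorDG.

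The element with the lowest p was chr11:37499900-37501801. BLA-labelled percentiles were 66.7 and 58.6 in Sham and 66.9 and 66.9 in FT, and CMA-labelled percentiles 15.9 and 7.19 in Sham and 10.2 and 8.35 in FT. The groups were far apart, with a difference of 1.66 ± 0.12 in normal score (SE, limma adjusted p = 0.00111). It was also one where the other regions were divided, at a mean of 79.4 in accumbens, 34.95 in cortex and 26.7 in BNST.

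The next, chr11:73393605-73395848, had 86.0 and 81.8 in the BLA-labelled Sham lists and 83.5 and 82.6 in FT, against 38.8 and 35.5 in the CMA-labelled Sham lists and 38.1 and 45.0 in FT. Its mean was 88.8 in BNST, 64.2 in accumbens and 4.85 in cortex. At chr10:7010102-7012105 the values were 72.5, 69.6, 73.2 and 62.8 in the BLA-labelled lists and 20.7, 12.7, 12.2 and 10.5 in the CMA-labelled lists, in the order Sham 1, Sham 2, FT 1, FT 2. BNST stood at 84.7 there, accumbens at 56.2 and cortex at 9.79.

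In the CMA direction the lowest p was that of chr8:39502040-39503831. The CMA-labelled lists had 73.1 and 77.2 in Sham and 71.0 and 72.7 in FT, and the BLA-labelled lists 30.5 and 21.9 in Sham and 25.1 and 31.2 in FT. The difference was -1.24 ± 0.10 in normal score (SE, limma adjusted p = 0.00111). This element lay in the megabase of chromosome 8 that held 7 called CMA-labelled windows and 0 of the BLA label, the second highest count of any megabase for the CMA label.

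At chr3:66950809-66954201 the CMA-labelled lists had 69.5, 57.0, 61.1 and 71.8 and the BLA-labelled lists 12.8, 14.5, 18.2 and 16.9, in the order Sham 1, Sham 2, FT 1, FT 2. Cortex stood at a mean of 71.1 and accumbens at 28.8, and BNST had no peak in any cut list. At chr4:55708072-55710246 the CMA-labelled values were 58.5, 64.6, 71.4 and 69.0 and the BLA-labelled values 10.2, 17.6, 18.1 and 9.99. No accumbens or BNST cut list had a peak there, and cortex was at 12.1. Full lists of the other regions were not read at these elements. The groups did not overlap at any of the 10 named elements, which follows from their choice by the lowest p of this same contrast.

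**Figure D5:**
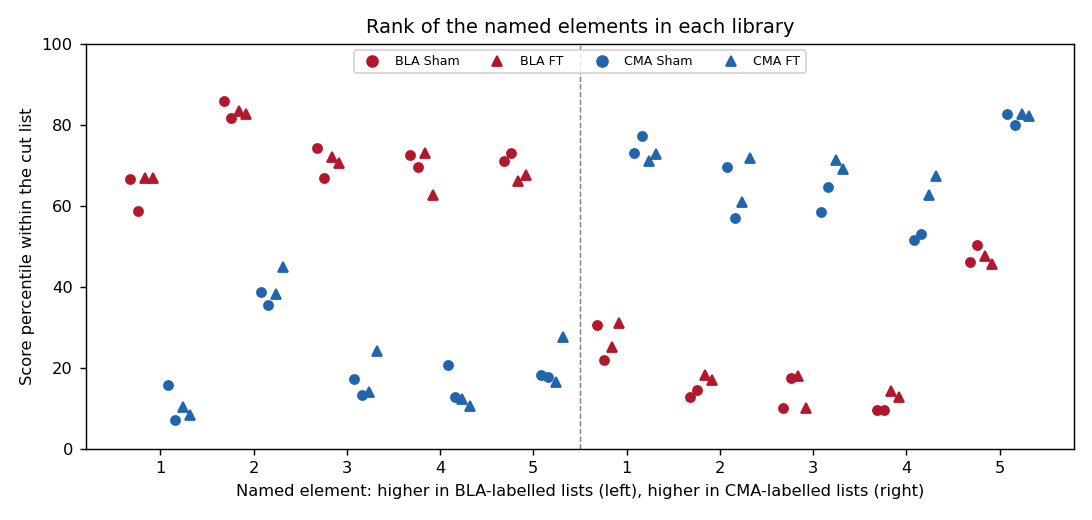
Score percentile (0 to 100, within the cut list) of the 10 named elements in each library, the 5 with the lowest p in either direction. Red is BLA-labelled and blue CMA-labelled, circles are Sham and triangles FT. The colours stand apart at each element, as the choice by lowest p entails. They do so by the least at element 5 on the right, where the CMA-labelled points are at 80.0 to 82.8 and the BLA-labelled points at 45.6 to 50.4.

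Peak width separated the labels at fewer elements. The covered length was higher in each BLA-labelled list than in any CMA-labelled list at 581 elements (2.83%) and lower at 233 (1.14%). For a single element such separation has a two-sided exact permutation p of 0.0286, so this too is a rule of separation and not a test over elements. The median fold of the mean covered length was 1.18 and 1.24. Of the 581 elements, 480 (82.6%) also ranked higher in the BLA-labelled lists, and of the 233, 158 (67.8%) also ranked higher in the CMA-labelled lists. By limma on log2 covered bases 3 and 1 elements passed an adjusted p of 0.05, and 1381 and 450 had an unadjusted p under 0.05. When lists were compared within pools, 2357 elements were wider and 1843 narrower in all 4 pairs, a looser rule. Without BLA Sham replicate 2, which had the narrowest peaks, 2410 elements were wider in the BLA-labelled lists. Without CMA FT replicate 2 the count was 1151. The lower count rose to 612 and 423 without CMA Sham replicate 1 or 2, and to 377 and 530 without BLA FT replicate 1 or 2.

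No difference of the label contrast between Sham and FT was detected in the ranks. The interaction of label and treatment passed an adjusted p of 0.05 at 0 of 20498 elements by limma (lowest adjusted p = 0.802), with 712 elements above 0 and 498 below it at an unadjusted p under 0.05. No other tool was run on the interaction. With 2 libraries in each cell of the design, this does not show that the labels differ equally under both treatments.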

How the data were processed

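H3K27ac ChIP-seq peak lists of 94 libraries were used, of which 8 carried the labels BLA or CMA. The authors aligned reads to Rn5 (the submitters' processing notes name BWA, with no version) and called peaks per library with DFilter. Each deposited list gives positions, the maximal filter score and the normalised tag count as scores, the −log10 p-value (4 to 200) as deposited, and the false discovery rate as a percent, deposited as 0 for every peak. Because scores are not comparable between libraries, only their order inside each list was taken. The −log10 p-value followed the same order as maxScore in all lists. Read depth is unknown, and no counting interval was computed.

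Lists were cut to 31893 peaks and turned into windows as described. Single values were compared by exact permutation over libraries, ranks with limma 3.58.1 (trend off) in R 4.3.3, and the rest with Python 3.11.15, numpy 2.4.6 and scipy 1.17.1. Steps were tested on simulated data. Alternatives were other list lengths and rankings, window sizes and overlaps, a stricter threshold, single treatments, each library left out, and blocks of pools. Loci are called windows joined across gaps of up to 2 windows. The named loci are the 10 per label with the most called windows, ties by mean score rank and position, and the named elements the 5 per direction with the lowest limma p.

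Samples were grouped by their labels. The study's methods give 2 pools of 10 animals per treatment, so libraries of one treatment and number were taken as a pool. Their deviations from the label means correlated at 0.0477 to 0.108 over tested windows. A BLA-labelled and a CMA-labelled library of the same treatment and different number gave 0.0648 to 0.109. Those of different treatment gave -0.113 to -0.0553. The correlations thus followed treatment and do not show that a pool was shared. Exact permutation p-values over libraries and the limma p-values measure the spread between libraries. They ignore that each pool was taken to have given a BLA-labelled and a CMA-labelled library. Only p-values with the pool as a block or over pool means work on pools. With the pool in the limma model, 3302 elements ranked higher in the BLA-labelled and 2660 in the CMA-labelled lists. The comparison, the regions and the lists of marker genes were chosen with earlier results of these data known. The marker lists, which need an annotation of Rn5, gave no result, and no sequence is printed for the same reason. Input libraries and read counts were not used here.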

Additional observations from a re-analysis of the deposited data

Results flagged for a closer look

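In 66 groups of 4 libraries with the same label, 6 had 1 value far from the other 3, by a gap whose share of the range exceeded Dixon's critical value for 4 samples. Chance flags about 1 in 20 such groups. BLA Sham replicate 2 was the low value in 3 of them. It stood at a score percentile of 58.6 at the first element named for the BLA label (chr11:37499900-37501801), at 81.6 at the first named locus (chr2:207400001-207402000) and at 25.2 at the third (chr3:160385001-160387000). The first is a percentile within the cut list and the second and the third are within the full list, which is the shortest of the 8 in this library.

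CMA FT replicate 2, the longest list, was the high value in 2 groups. Its percentile was 27.7 at the fifth element named for the BLA label (chr20:12016988-12019531) and 82.4 at the second named CMA-labelled locus (chr2:230049001-230051000). The mean Jaccard index of CMA Sham replicate 2 with accumbens and BNST libraries was 0.488, above the 0.478 to 0.48 of the other 3 CMA-labelled libraries and below all BLA-labelled libraries.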

How the results depend on the processing

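Of 248 values under alternatives, 177 kept their direction and their side of the threshold (counts within 1.5-fold, untested values within 1 SD), 50 moved, 12 lost significance and 9 changed sign. The sign changes were all in list length, width and covered length, none of which passed a test. The difference in similarity to cortex against accumbens and BNST stayed below 0 throughout (-0.138 to -0.0807 over list lengths, windows, pools and targets). Leaving out each library gave -0.0962 to -0.0929 at a two-sided exact permutation p of 0.0571, the smallest that 3 against 4 allows.

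BLA-labelled and then CMA-labelled windows numbered 742 and 957 on full lists, 1135 and 595 for 10000 peaks, 663 and 752 at −log10 p of at least 6, 40 and 19 for 5 kb windows, 2345 and 2732 for 500 bp, 2029 and 2302 for any overlap, 356 and 422 for whole windows, 781 and 797 for peak centres, 3104 and 4385 in Sham, 6559 and 6128 in FT, and 417 and 437 with full lists of the other label empty. With BLA Sham replicate 2 left out and lists cut to the shortest of 7, chosen after seeing the data, 2733 and 1475 were called. Leaving out each library gave 1349 to 2470 and 1457 to 2255. The replicate block, which asks that all 4 pool pairs go the same way, gave the same 1192 and 1348 by construction.

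Under the block by pool, the label difference in Jaccard index (0.0737) and in similarity (-0.0944) had exact permutation p of 0.125, the smallest it allows. The Jaccard difference was 0.0516 on full lists (exact permutation p = 0.0571), 0.0556 in 5 kb windows (exact permutation p = 0.0857, with 0.125 for treatment) and 0.0665 to 0.0798 without each library. Log2 differences without each library were -0.13 to 0.10 for list length, -0.12 to 0.0548 for width and -0.0714 to 0.0726 for covered length. The positive values came without BLA Sham replicate 2 (0.0998, 0.0548 and 0.0726), without CMA FT replicate 2 (0.0358, 0.00437 and 0.0255) and without CMA FT replicate 1 (0.00806, covered length). Width among 10000 peaks gave 0.0321 and covered length in FT 0.0132.

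Sharing in at least 1 library was 64.6% (BLA) and 72.6% (CMA) for cortex, both below the 78.5% of all tested windows. It was 96.6% and 27.9% for accumbens, against 74.6%, and 94.4% and 19.7% for BNST, against 68.2%. Cortex shared 22.5% and 57.9% of 5 kb windows, and accumbens 64.0% of BLA-labelled windows on full lists. No matching share of all tested windows is given for these settings. Without each library, cortex shared 13.4% to 18.4% (BLA) and 32.9% to 40.6% (CMA), accumbens 66.6% to 74.9% and 2.15% to 4.54%, and BNST 81.7% to 91.1% and 9.79% to 13.6%.

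Elements ranked higher were 909 and 685 for 10000 peaks and 578 (CMA) on full lists. Without each library they were 2365 to 3011 and 1207 to 1883. Elements wider were 2357 and 1843 under the replicate block, 135 and 29 for 10000 peaks, 140 (CMA) at equal covered length, 3 and 1 by limma, and 586 to 2410 and 234 to 612 without each library. The causes were not tested.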

Other observations

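Called windows were not evenly dense. The highest count for the CMA label in 1 megabase was 8 of 51 tested windows, at chr9:69000001-70000000, with 1 called for the BLA label. The seventh named CMA-labelled locus, chr9:69527001-69529000, lay inside it. It had score percentiles of 70.2 and 62.0 in the CMA-labelled Sham lists and 82.0 and 85.4 in FT, and no cortex or BNST library occupied it. At chr6:103000001-104000000 the CMA label held 6 of 36 tested windows and the BLA label 0. For the BLA label the highest counts were 7 of 113 at chr5:140000001-141000000 and 7 of 151 at chr13:54000001-55000000. These bins were chosen for their counts.

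The highest-scoring of the 62 CMA-labelled windows found in no other library, chr7:140597001-140598000, had percentiles of 71.9 and 66.2 in Sham and 83.6 and 82.6 in FT. BLA-labelled Sham lists had no peak there and FT lists had 37.4 and 38.5. In full lists, 1 of the other 86 libraries occupied it.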
